A study of Arabidopsis thaliana with 2 samples.

Results

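The genes described here build, extend or acetylate the polysaccharides of the plant cell wall, and 28 of them were measured among the 9253 genes that a named probe stood for. They were taken by symbol alone, as every gene whose current RefSeq symbol belongs to one of 12 families (CESA, CSL, COBL, TBL, GAUT, GATL, IRX, GUX, GUT, XXT, FUT and MUR). The measured members were 17 TBL genes, 8 CSL genes, IRX15, IRX15-L and GUT1, each with 1 probe. RefSeq holds 41 TBL, 26 CSL, 10 IRX and 3 GUT symbols, so the measured genes are only a part of each family. Genes of the other 8 families, among them the CESA cellulose synthases and the GAUT pectin enzymes, were not analysed here.

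Rosette leaves of 2-week-old *Arabidopsis thaliana* were compared on 2 arrays of 2 colours. Each array set RNA of 1 plant that over-expressed NST1 under the 35S promoter, labelled with Cy5, against wild-type RNA, labelled with Cy3. The over-expressors were independent T1 plants, that is primary transformants, no. 36 and no. 44, and the labels say that such plants form secondary wall thickenings outside their usual cells. All plants grew in 16 h light and 8 h dark with no treatment. The 35S promoter is active in most tissues, so NST1 was not restricted to the cells that normally thicken their walls. The labels do not say whether both arrays carried the same wild-type RNA.

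Each value is the authors' deposited log ratio of a probe on 1 array. The values ran from -2 to 2 and were read as log10 of over-expressor over wild type. No source used here states the log base, how the arrays were centred or which way the ratio runs. Over-expressor over wild type is the likely direction, from the dyes and titles in the labels, and folds hold only if the base is 10. If the ratio ran the other way, all that rose would have fallen and the reverse, and each rank from the top would be one from the bottom. The dyes were swapped on 0 arrays, so dye and genotype cannot be told apart. The deposited ratios carry no level, so the leaf label could not be set against leaf markers, and NST1 itself was not analysed here. "Rose" and "fell" are used of genes that passed limma's moderated test against 0 at an adjusted p threshold of 0.05, with the Benjamini-Hochberg adjustment over all 22575 probes. This test rests on the spread between 2 arrays, and it leaves out the spread of wild type if both carried the same wild-type RNA. The leaves were measured as bulk tissue, in which fewer cells of a type and less RNA per cell cannot be told apart.

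Secondary walls are thickened walls laid down in vessels and fibres, made mainly of cellulose, xylan and lignin, whereas growing cells have primary walls rich in xyloglucan and pectin. Xylan, mannan and xyloglucan are polymerised in the Golgi and then carry acetyl groups, which affect how the chains pack and how they interact with cellulose. TBL proteins, named after the trichome birefringence mutant, include the Golgi enzymes that place acetyl groups on particular sugars of particular polymers. NST1, with its close relatives, switches on the secondary wall programme in fibres and some other cell types of *Arabidopsis*.

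Of the 28 genes, 5 rose, 5 fell and 18 did not pass. Over all genes, 10% rose and 12.4% fell by the same rule, and the members' share was 17.9% in each direction, a distance from the background of a few genes. All 5 that rose were TBL genes, namely TBL37, TBL33, TBL32, TBL35 and TBL18. The 5 that fell were TBL45, TBL36, TBL28, CSLC5 and CSLA03. The median of the 28 mean log ratios was 0.0585, against 0.001 over all genes. On both arrays 18 members lay above 0 and 8 below, which is 64.3% and 28.6%, against 42.2% and 41.1% of all genes. These distances were not tested, because the members were chosen with earlier results of these data known.

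**Figure D1:**
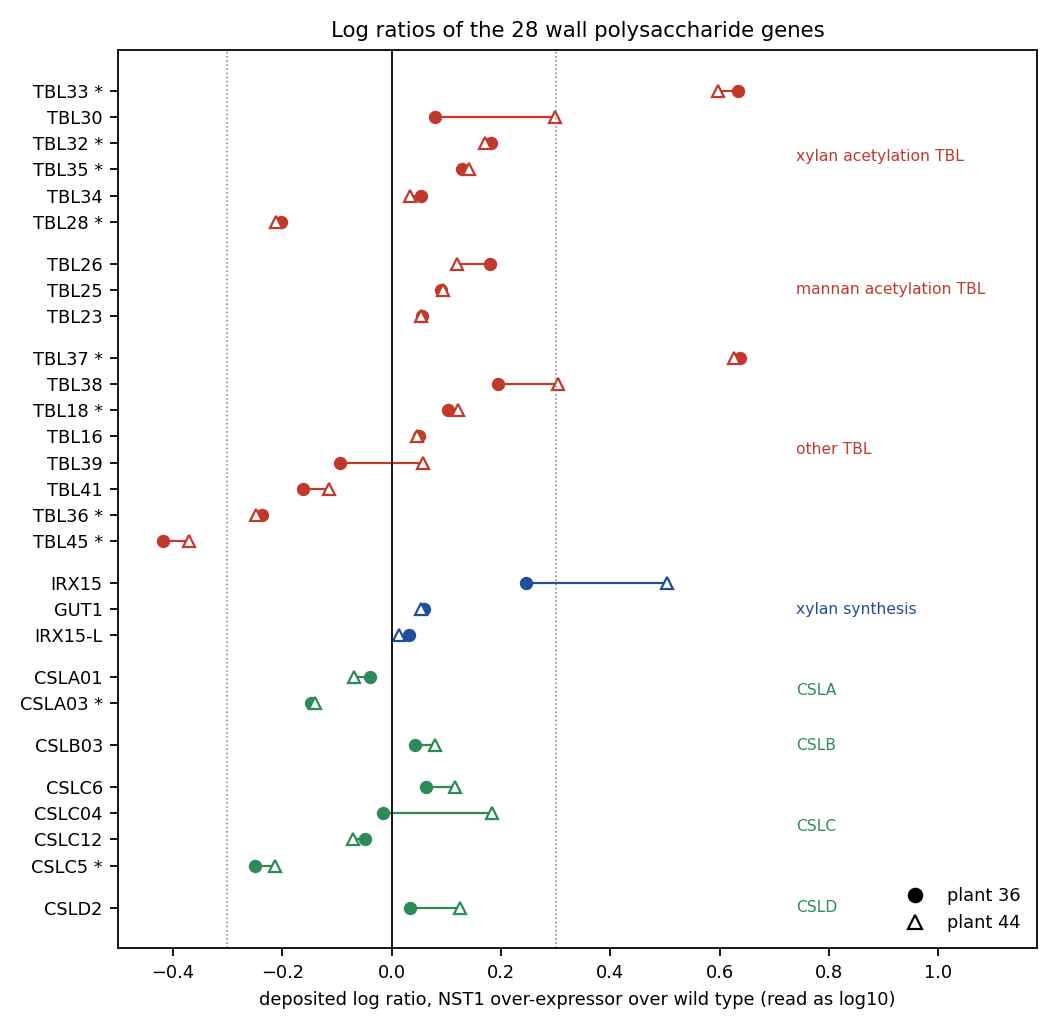
Deposited log ratio of each of the 28 genes (horizontal axis, read as log10, over-expressor over wild type) in plant 36 (filled circles) and plant 44 (open triangles), grouped by role. Dotted lines mark 2-fold if the base is 10, asterisks mark genes that passed the test, and only TBL37, TBL33 and TBL45 lay beyond 2-fold on both arrays.

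Genes linked to xylan acetylation came first, since xylan is the main non-cellulosic polysaccharide of the secondary wall. Among the measured TBL genes, TBL28, TBL30, TBL32, TBL33, TBL34 and TBL35 are known in *Arabidopsis* as xylan acetyltransferases that differ in the position and the sugar they favour. Of these 6 genes, 3 rose, 1 fell and 2 did not pass, with a median mean log ratio of 0.156. Over all genes 10% rose and 12.4% fell. The split of TBL genes by polymer was made after values were seen, so these group values are description only. The 6 genes did not move as a block, and 5 of the 6 lay above 0 on both arrays.

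TBL33 (AT2G40320) had log ratios of 0.633 in plant 36 and 0.596 in plant 44. Both plants were about equally high, and the mean of 0.615 ± 0.0262 (SD, n = 2 plants) is 4.12-fold if the base is 10 (limma adjusted p = 0.018). It ranked as number 55 from the top among the 9253 genes, or from the bottom if the ratio runs the other way. TBL32 (AT3G11030), which acts with TBL33 on xylan and partly stands in for it, had 0.181 in plant 36 and 0.17 in plant 44. The plants again lay close together, and the mean was 0.176 ± 0.0078, or 1.5-fold (limma adjusted p = 0.0331). TBL32 and TBL33 thus both rose, while their mean log ratios differed by more than the spread of either gene between plants.

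TBL35 (AT5G01620) had 0.129 in plant 36 and 0.142 in plant 44, a mean of 0.136 ± 0.0092 or 1.37-fold (limma adjusted p = 0.0397). TBL34 (AT2G38320), the enzyme studied together with TBL35, had 0.053 in plant 36 and 0.034 in plant 44 and did not pass (limma adjusted p = 0.158). Both genes lay above 0 in both plants, TBL35 with the higher log ratio in each.

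TBL28 (AT2G40150) was the single gene of the xylan acetylation group that fell, with -0.202 in plant 36 and -0.212 in plant 44. Its mean was -0.207 ± 0.0071, which is 1.61-fold lower if the base is 10 (limma adjusted p = 0.0302). TBL30 (AT2G40160), its direct neighbour on chromosome 2 with 0 protein-coding genes between them in the RefSeq order, had 0.08 in plant 36 and 0.298 in plant 44. Neighbouring genes of the same group therefore had opposite signs in both plants. TBL30 did not pass, since its plants differed by 0.218, and its mean was 0.189 ± 0.154 (limma adjusted p = 0.181). TBL33 lies 18 protein-coding genes beyond TBL30 on the same chromosome. Of those 18 genes, 5 were measured, with mean log ratios between -0.159 and 0.27. Of the 5, 2 rose and 1 fell, where 10% of all genes rose and 12.4% fell, and the region was not tested.

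The 3 measured TBL genes of mannan acetylation were TBL23, TBL25 and TBL26, which are known in *Arabidopsis* to acetylate glucomannan. None of them passed, although all 3 lay above 0 on both arrays (limma gave an unadjusted p under 0.05 in 3). The same test without limma's empirical Bayes moderation, called here the test with no prior, gave an unadjusted p under 0.05 in 2. Over all 9253 genes, the counts were 4340 in limma and 1803 with no prior. TBL26 (AT4G01080) had 0.179 in plant 36 and 0.119 in plant 44 (limma adjusted p = 0.0605). TBL25 (AT1G01430) had 0.09 and 0.093 (limma adjusted p = 0.056), and TBL23 (AT4G11090) had 0.056 and 0.054 (limma adjusted p = 0.104), in the same order of plants. Their mean log ratios thus ran from 0.055 to 0.149, or 1.14-fold to 1.41-fold if the base is 10. TBL25 and TBL26 were near the threshold and passed in 6 of 7 other settings of the fit, in all but the robust prior. Each of those 7 settings called more of all genes than the main fit did.

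The other 8 TBL genes, TBL16, TBL18, TBL36, TBL37, TBL38, TBL39, TBL41 and TBL45, held both the highest and the lowest value of all 28 members. Of these 8, 2 rose, 2 fell and 4 did not pass, with a median mean log ratio of 0.015, where 10% of all genes rose and 12.4% fell. TBL37 (AT2G34070) was the highest member, with 0.637 in plant 36 and 0.627 in plant 44. The plants were nearly the same, and the mean of 0.632 ± 0.0071 is 4.29-fold if the base is 10 (limma adjusted p = 0.0169). It ranked as number 46 from the top among all genes, with the same reservation on direction. TBL37 and TBL33 were the 2 members that both arrays placed at 2-fold higher or beyond, as did 2.73% of all genes. The same 2 members lay beyond 3-fold higher in both plants, with 0.865% of all genes, and 0 members lay beyond 3-fold lower, with 0.367% of all genes.

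TBL38 (AT1G29050), which is described in *Arabidopsis* as an unusual member that removes acetyl groups from homogalacturonan, a pectin, had 0.194 in plant 36 and 0.304 in plant 44. It lay above 0 in both plants but did not pass (limma adjusted p = 0.0582). TBL38 did pass in each of the 7 settings that called more of all genes. TBL18 (AT4G25360) rose, by the smallest margin of the 10 genes that changed, with 0.103 in plant 36 and 0.121 in plant 44. Its mean of 0.112 ± 0.0127 is 1.29-fold if the base is 10 (limma adjusted p = 0.0496). TBL16 (AT5G20680) had 0.05 and 0.047 in the same order of plants and did not pass (limma adjusted p = 0.123).

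At the lower end, TBL45 (AT2G30010) had -0.419 in plant 36 and -0.37 in plant 44. Its mean of -0.395 ± 0.0346 is 2.48-fold lower if the base is 10 (limma adjusted p = 0.0272), and it was number 117 from the bottom of all genes, or from the top if the ratio is turned. TBL45 was the single member that both arrays placed at 2-fold lower or beyond, as did 2.44% of all genes. TBL36 (AT3G54260) fell as well, with -0.237 in plant 36 and -0.249 in plant 44, a mean of -0.243 ± 0.0085 or 1.75-fold lower (limma adjusted p = 0.0283). TBL41 (AT3G14850) lay below 0 in both plants, at -0.163 and -0.115, and did not pass (limma adjusted p = 0.056). Like TBL38, it did pass in each of the 7 settings that called more of all genes. TBL39 (AT2G42570) was the single TBL gene whose sign differed between plants, with -0.095 in plant 36 and 0.058 in plant 44 (limma adjusted p = 0.809).

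Over the TBL genes measured, 5 of 17 rose, 3 fell and 9 did not pass. Those that rose are 29.4% and those that fell 17.6% of the 17, against 10% and 12.4% of all genes. The median mean log ratio was 0.0915, and 12 of the 17 lay above 0 and 4 below 0 on both arrays. The median size of the mean log ratio, without its sign, was 0.149 in TBL genes, 0.0817 in CSL genes and 0.0725 over all genes. If the limit is set at 1.5-fold in both plants, 4 of the 28 members lay higher (TBL37, TBL33, IRX15 and TBL38), as did 7.54% of all genes. At that limit 4 members lay lower (TBL45, TBL36, TBL28 and CSLC5), as did 8.54% of all genes. None of these family values was tested against the other genes.

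**Figure D2:**
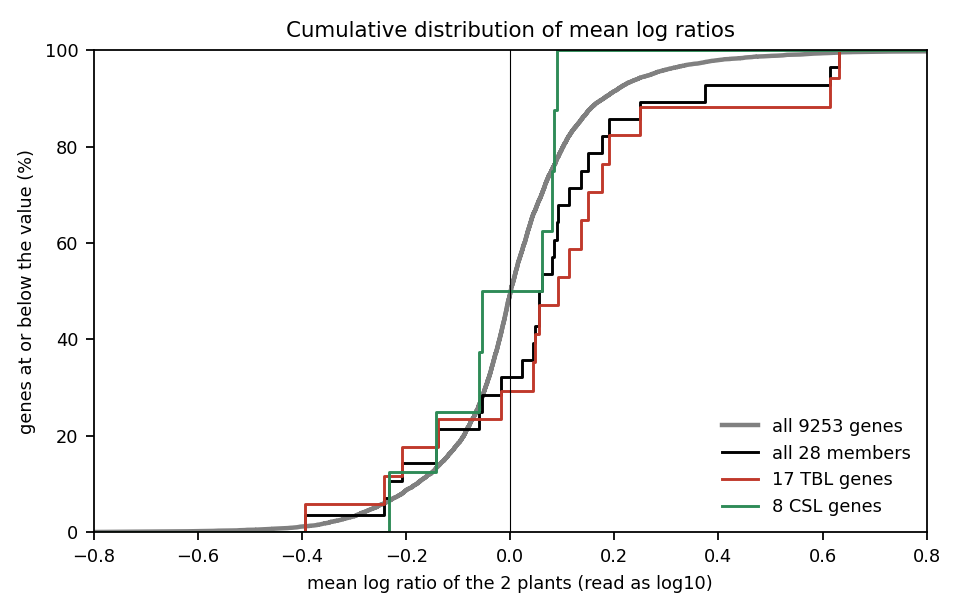
Share of genes at or below each mean log ratio of the 2 plants (horizontal axis, read as log10), for all 9253 genes, the 28 members, the 17 TBL genes and the 8 CSL genes. The axis ends at -0.8 and 0.8 and leaves 29 genes undrawn, and from 0 up to the value of TBL33 the TBL curve runs to the right of that of all genes, with a median of 0.0915 against 0.001.

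The xylan synthesis genes measured were GUT1, IRX15 and IRX15-L. IRX15 and IRX15-L are a pair of related Golgi proteins needed for normal xylan chain length and named after the collapsed vessels of irregular xylem mutants. They were the 2 measured of 10 IRX symbols, so xylan synthesis was covered only in part. GUT1, also known as IRX10-L, belongs to the xylosyltransferases that extend the xylan backbone. None of the 3 passed. Limma gave an unadjusted p under 0.05 in 2 of them, and the test with no prior in 1. Of all 9253 genes, 4340 and 1803 did so by the same tests, in that order. IRX15 (AT3G50220) had 0.246 in plant 36 and 0.504 in plant 44, which are 1.76-fold and 3.19-fold if the base is 10. Both plants were above wild type, plant 44 by far more, and no other member differed as much between the plants. IRX15-L (AT5G67210) had 0.031 in plant 36 and 0.014 in plant 44 (limma adjusted p = 0.341), well below IRX15 in each plant. GUT1 (AT5G61840) had 0.059 and 0.053 in the same order (limma adjusted p = 0.103). The limma adjusted p of IRX15 depended on the fit. It was 0.0931 over all probes, and over the 7 other settings it ran from 0.0471 to 0.0747 and passed in 2. Those 2 were probes with 1 gene only (0.0488) and probes averaged per gene (0.0471). In them 17.2% and 17.5% of all genes rose, against 10% in the main fit. With a minimum fold of 1.2 tested, the limma adjusted p of IRX15 was 0.174. The test with no prior gave an adjusted p of 0.37.

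CSL proteins are cellulose synthase-like glycosyltransferases that make polysaccharide backbones other than cellulose. Of the 8 measured CSL genes, 2 fell and 6 did not pass, and their mean log ratios stayed between -0.232 and 0.089. No CSL gene rose in limma's test over all probes, where 10% of all genes rose and 12.4% fell. In limma 4 of the 8 had an unadjusted p under 0.05, and with no prior 2 did. Of all 9253 genes, 4340 and 1803 did so, in that order.

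CSLC genes encode the glucan synthases of the xyloglucan backbone, a polymer of primary walls. CSLC5 (AT4G31590) fell, with -0.25 in plant 36 and -0.214 in plant 44, a mean of -0.232 ± 0.0255 or 1.71-fold lower if the base is 10 (limma adjusted p = 0.0324). CSLC12 (AT4G07960) had -0.049 and -0.071, and CSLC6 (AT3G07330) had 0.062 and 0.116, in the same order of plants. CSLC04 (AT3G28180) had -0.016 in plant 36 and 0.184 in plant 44, so its sign differed between the plants. CSLC12, CSLC6 and CSLC04 did not pass, with limma adjusted p values of 0.109, 0.105 and 0.413.

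CSLA genes encode mannan synthases. CSLA03 (AT1G23480), one of the glucomannan synthases, fell, with -0.147 in plant 36 and -0.14 in plant 44, a mean of -0.144 ± 0.0049 or 1.39-fold lower if the base is 10 (limma adjusted p = 0.037). CSLA01 (AT4G16590) had -0.039 and -0.069 and did not pass (limma adjusted p = 0.139). Both measured CSLA genes therefore lay below 0 in both plants, as did 41.1% of all genes. The 3 TBL genes of mannan acetylation lay above 0 in both, as did 42.2% of all genes. Of these CSLA and TBL genes only CSLA03 passed, and the contrast was not tested. CSLD2 (AT5G16910), which acts in tip-growing cells such as root hairs, had 0.034 in plant 36 and 0.125 in plant 44 (limma adjusted p = 0.198). CSLB03 (AT2G32530) had 0.042 and 0.08 (limma adjusted p = 0.134).

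**Figure D3:**
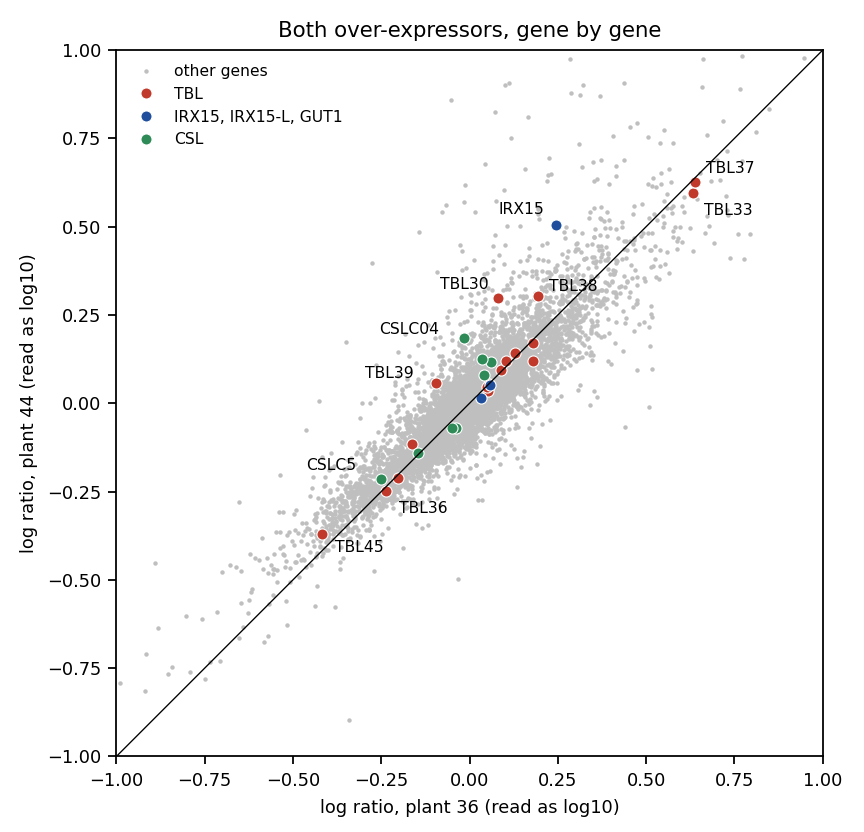
Log ratio of each gene in plant 36 (horizontal axis) and plant 44 (vertical axis), both read as log10, with the 28 members coloured by family over the other genes in grey and the line of equal values in black. The axes end at -1 and 1 and leave 25 genes undrawn, and TBL37, TBL33 and TBL45 lie near the line, whereas IRX15, TBL30, CSLC04, TBL39 and TBL38 lie above it.

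The plants lay close together for most members. The log ratios differed by less than 0.05 in 20 of 28 members, or 71.4%, against 62.2% of all genes. The SD of the 10 genes that changed ran from 0.0049 to 0.0346, and a small SD itself helped a gene to pass the test. In 5 members, or 17.9%, the plants differed by more than 0.1, against 13.4% of all genes. In each of these 5 members plant 44 was the higher one. These were IRX15 with a difference of 0.258, TBL30 with 0.218, CSLC04 with 0.2, TBL39 with 0.153 and TBL38 with 0.11. Over all genes, 1237 differed by more than 0.1, of which 743, or 60.1%, were higher in plant 44. With 1 array for each plant, no difference between the plants was tested.

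Other genes that assist these enzymes were taken from a list of 54 genes for acetylation partners, cellulose synthase partners, further xylan and pectin enzymes and nucleotide sugar enzymes, of which 3 were measured. None passed over all probes (limma gave an unadjusted p under 0.05 in 1, the test with no prior in 0). Those counts were 4340 and 1803 over all 9253 genes. TBR (AT5G06700), the founder of the TBL family, had 0.088 in plant 36 and 0.112 in plant 44 (limma adjusted p = 0.0594). It passed in 6 of 7 other settings of the fit, all of which called more of all genes than the main fit did. AXY9 (AT3G03210), which takes part in the acetylation of both xylan and xyloglucan, had 0.04 and 0.007 (limma adjusted p = 0.385). COB (AT5G60920), a protein of oriented cellulose deposition, had -0.04 and 0.037 (limma adjusted p = 0.981).

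Markers of other cell types were listed for vessels, phloem, roots and trichomes, 14 genes in all, of which 7 were measured. Of the vessel genes 2 of 6 were measured, and of the phloem genes 1 of 3. All of these measured genes rose, as did 10% of all genes. The marker lists were chosen with earlier results of these data known, so these counts are description only. The measured vessel genes were SCPL48, with 0.381 in plant 36 and 0.515 in plant 44, and PASPA3, with 0.397 and 0.497. Both were higher in plant 44, as were 4542 of all 9253 genes. SWEET11, of the phloem, had 0.325 and 0.324, and limma adjusted p ran from 0.0233 to 0.0388 in these 3 genes. None of the 4 root and trichome genes passed in limma over all probes, and their means ran from -0.0775 to -0.024. Of the 4, 2 had an unadjusted p under 0.05 in limma and 1 with no prior, against 4340 and 1803 of all 9253 genes. Among the 4 were PYK10 with -0.0775 and EXPA18 with -0.0685, of roots, and TRY with -0.024, of trichomes. Their part in the members' values was not tested.

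How far each call depended on the fit was followed over 9 other settings. All 10 genes that changed passed with the same sign in each of 7 of them, which centred or scaled the arrays, used a robust prior, or left out or averaged probes. Each of these 7 also called more of all genes, with 11.9% to 17.5% rising against 10%, and 13.7% to 17.6% falling against 12.4%. Passing again in them is therefore weak evidence that a call is robust. With a minimum fold of 1.2 tested, 5 of the 10 passed, namely TBL37, TBL33, TBL45, TBL36 and TBL28, and with no prior 0 passed. Of the 18 others, TBL38 and TBL41 passed in all 7 settings, TBL26 and TBL25 in 6, IRX15 in 2, and 13 genes in none. Passing in all 7 was thus not confined to the 10 genes that changed.

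**Figure D4:**
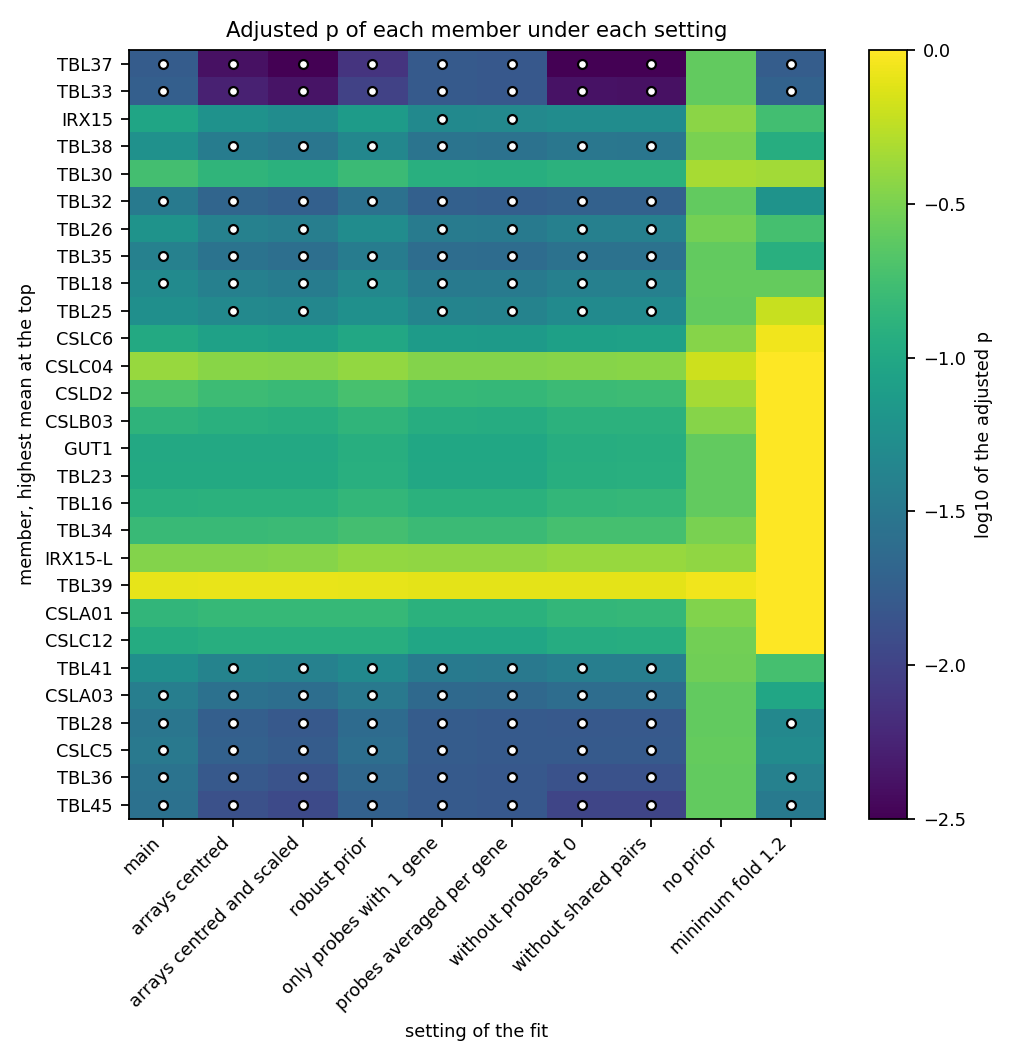
Adjusted p of each of the 28 genes (rows, highest mean at the top) under each setting of the fit (columns), as log10 in colour, with white dots where it lies below 0.05. TBL37, TBL33, TBL28, TBL36 and TBL45 carry a dot in every column but the one with no prior, which has 0 dots.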

How the data were processed

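Per the labels, total RNA of NST1 over-expressors (Cy5) and wild type (Cy3) was hybridised on 2 arrays. The authors deposited 1 log ratio per probe and array for 22575 probes, read here as log10. No source used here says how they made it. Array medians were -0.002 (plant 36) and -0.004 (plant 44). Without scanner intensities the brightness of a probe over background is not known, and precision is limited by having 2 arrays.

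Of the probes, 9335 had 1 gene in the platform annotation, 40 had several and 13200 were unnamed here. Symbols came from the RefSeq table of TAIR10.1 (9317 matched). All probes were fitted with limma 3.58.1 in R 4.3.3 (intercept only, empirical Bayes, two-sided against 0, Benjamini-Hochberg over all probes), with 1 residual and 1.37 prior degrees of freedom. The arrays were not centred again. The fit was tested on simulated data. A gene with several probes counted as changed if all passed with 1 sign. Every member is named, and of each further list the genes that passed or, where none did, up to 2 with the largest absolute mean. The members and lists were chosen with earlier results of these data known, and the split of TBL genes by polymer was made after values were seen. The planned promoter search was not run, and sequences were not used here.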

Additional observations from a re-analysis of the deposited data

How the results depend on the processing

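Of the members, 5 rose and 5 fell. The number that rose became 8 with the arrays centred, with centring and scaling, without probes at 0 and without pairs of values shared by 10 or more probes, and 9 with only probes of 1 gene or with probes averaged per gene. These settings also raised the background, from 10% of genes to between 15.4% and 17.5%. With a minimum fold of 1.2, 2 rose and 3 fell, where 3.46% and 4.76% of all genes did. With no prior 0 passed, of the members and of the listed other genes alike, while 13 members and 4329 of all probes had an unadjusted p under 0.05 (19 and 9718 in limma). With both arrays at 2-fold or beyond, 2 members lay higher and 1 lower, at 1.5-fold 4 and 4, and at 3-fold 2 and 0. Of all genes, 2.73% and 2.44% did so at 2-fold, 7.54% and 8.54% at 1.5-fold, and 0.865% and 0.367% at 3-fold. Read as log2, 0 lay beyond 2-fold in either direction. On single arrays, 2 to 4 members lay 2-fold higher and 1 lower. The shares of all genes on single arrays and under log2 were not counted, so those counts have no background beside them. The median of members was 0.0515 to 0.069 on single arrays, and that of TBL genes 0.08 to 0.093. The cause was not tested. No member that passed changed sign. The TBL median and the counts over further lists were added after the data were seen. Each ratio already pairs over-expressor and wild type within an array, and with 1 group there was no replicate number to block on. Calls without 1 plant were not run, since no residual degrees of freedom remain. What limit signal over background sets is unknown, since intensities were not analysed here.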
